A study of Rattus norvegicus with 8 samples.

Results

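The proteasome genes measured here were chosen by name, as genes whose RefSeq symbol begins with Psma to Psmg followed by a number. They were read from 54 of the 41012 non-control probes of each array and make up 46 genes. Of these, 17 encode core subunits (Psma and Psmb), 21 carry the names of the regulatory particle (Psmc and Psmd) and 8 carry the names of activators, their inhibitor and assembly factors (Psme, Psmf and Psmg). A pair of genes meets the naming rule without encoding a subunit, activator, inhibitor or assembly factor of the proteasome. Psmc3ip encodes a recombination factor that acts in meiosis, and Psme3ip1 a protein that binds the activator made by Psme3. Both were kept in the counts and are named where they matter. Psmb11, Psmg1 and Psmg3 had no probe matched through its accession and were not analysed here.

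Compared were 8 right kidney samples from female rats of the strain F344/NSlc, 10 weeks old. In the nephrectomized group (n = 4 samples) the opposite kidney had been removed (unilateral nephrectomy), and the control group (n = 4 samples) had a sham operation. Sampling took place 2 days after surgery by the design text. By source name it was 1 day in sham and 2 days in nephrectomized animals, and under that reading the effect of the operation cannot be told apart from that of the day. No label ties a sample to a named animal, so the p-values measure only the spread between these samples, which may be technical. The 8 1-colour arrays lay on 2 slides, 2 of each group per slide. Sham arrays took positions 1 and 2 and nephrectomized arrays positions 3 and 4, so position and group cannot be told apart. Between 59.5% and 66.0% of probes per array were well above background, none was saturated, and the 75th percentile of signal lay between 388 and 643. All 12 listed marker genes of nephron segments, from Slc34a1 of the proximal tubule to Aqp2 of the collecting duct, were measured above the filter, and the median of their log2 changes was -0.0026, with 0 called. Of these genes 6 were positive and 6 negative, from -0.33 for Cubn to 0.46 for Calb1, whose groups did not overlap (limma adjusted p = 0.0517). In whole kidney RNA, fewer cells of a type and less RNA per cell cannot be told apart.

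The proteasome degrades proteins tagged with ubiquitin. Its barrel-shaped core is built from rings of alpha subunits (Psma genes), which gate the entrance, and beta subunits (Psmb genes), of which a few carry the peptide-cutting sites. The regulatory particle binds the tagged protein, removes the ubiquitin and threads the chain into the core, with a ring of ATPases (Psmc genes) and a set of non-ATPase subunits (Psmd genes). Other caps, the Psme activators, can take its place. Core and regulatory subunit genes are known to be induced together when proteasome capacity is short, through the transcription factor encoded by Nfe2l1, which binds antioxidant response elements in their promoters. Interferons induce a different set, among it Psmb9, Psmb10, Psme1 and Psme2, which change the peptides that are made.

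The promoters below show the letters that these known routes of control use. RefSeq promoters of assembly GRCr8, 250 bases before to 50 bases after the gene start, were found for 42 of the 46 genes. Each entry gives the 250 bases before the start, 5′ to 3′ on the gene's strand, in lower case. Capitals mark matches to the antioxidant response element core, spelled TGACNNNGC or TGAGNNNGC, or to the core of the interferon-stimulated response element, read as GAAA, any 2 bases and GAAA again, on either strand. The CCAAT box was searched too and had no match in the bases shown. Psmb5, Psmb6 and Psmd1 are shown for the first of these, and Psmb10 and Psme2 for the last.
Psmb5, chr15:32047380-32047629, minus strand: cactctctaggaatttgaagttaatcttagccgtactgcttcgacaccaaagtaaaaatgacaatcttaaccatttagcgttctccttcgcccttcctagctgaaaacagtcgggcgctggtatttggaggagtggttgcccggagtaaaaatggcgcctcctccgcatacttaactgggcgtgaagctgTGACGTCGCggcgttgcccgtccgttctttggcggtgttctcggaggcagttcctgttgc
Psmb6, chr10:55737638-55737887, plus strand: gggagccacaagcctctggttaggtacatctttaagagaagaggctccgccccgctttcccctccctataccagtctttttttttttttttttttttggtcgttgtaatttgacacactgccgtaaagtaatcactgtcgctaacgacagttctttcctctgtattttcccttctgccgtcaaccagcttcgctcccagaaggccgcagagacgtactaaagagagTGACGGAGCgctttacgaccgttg
Psmd1, chr9:94157721-94157970, plus strand: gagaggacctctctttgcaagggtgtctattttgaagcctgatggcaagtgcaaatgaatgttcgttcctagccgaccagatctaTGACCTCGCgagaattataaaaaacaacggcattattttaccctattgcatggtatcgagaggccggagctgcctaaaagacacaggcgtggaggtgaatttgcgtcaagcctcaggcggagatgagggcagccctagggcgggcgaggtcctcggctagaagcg
Psmb10, chr19:50743293-50743542, minus strand: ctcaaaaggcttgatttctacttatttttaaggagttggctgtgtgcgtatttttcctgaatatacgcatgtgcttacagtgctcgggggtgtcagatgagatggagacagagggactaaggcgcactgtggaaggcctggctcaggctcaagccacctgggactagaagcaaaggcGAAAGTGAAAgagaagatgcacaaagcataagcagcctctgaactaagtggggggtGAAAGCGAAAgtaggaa
Psme2, chr15:33052752-33053001, minus strand: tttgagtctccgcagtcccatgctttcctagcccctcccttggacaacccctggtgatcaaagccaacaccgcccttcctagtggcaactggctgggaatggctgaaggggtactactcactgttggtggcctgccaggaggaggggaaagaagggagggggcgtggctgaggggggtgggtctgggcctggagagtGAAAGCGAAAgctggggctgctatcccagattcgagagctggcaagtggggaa

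In the full window of 300 bases, TGACNNNGC was found in 8 of 42 proteasome promoters (19.1%) against 12.1% of all 33469 promoters, and TGAGNNNGC in 10 (23.8%) against 17.2%. At least 1 of these spellings stood in 7 of 16 core, 8 of 18 regulatory particle and 2 of 8 activator and assembly promoters, against 27.1% of all promoters. CCAAT was present in 21 of 42 (50%) against 37.5%, and the interferon element core in 6 of 42 (14.3%) against 3.92%. Psmb10 held 2 copies of it and Psme2 held 1. Psmb9 and Psme1, also named above as interferon-induced, held 0. The other matches stood in Psma4, Psmb3, Psmd7 and Psmg4, which are not in that named set. Matches to different motifs shared bases in 1 of the 42 promoters. A match describes letters only, and both strands were searched.

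None of the 45 proteasome genes that could be tested passed the threshold after nephrectomy. With limma and Benjamini-Hochberg adjustment over 20910 features, 0 of 45 were called higher, against 0.751% of all features, and 0 were called lower, against 0.287% (either direction, 1.04%). At an unadjusted limma p under 0.05, 3 of 45 were higher (Psmd14, Psme2 and Psmc3ip) against 9.74% of all features, and 0 were lower against 6.31%. All 45 were well above background on all 8 arrays. The remaining gene, Psma8, a core subunit known from the testis, was not well above background on any of the 8 arrays.

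The changes were small in both directions. Values here and below are log2 signal relative to the array's 75th percentile, and changes are nephrectomized minus sham. The 45 changes ran from -0.10 for Psmd6 to 0.47 for Psme3 at these settings, and 44 of them stayed within 0.25 of 0, whereas 16.1% of all features moved beyond 0.25. The median within-group SD was also smaller in the 45 genes, at 0.095 against 0.13 for all features. These shares were not matched for spread or signal level. Outside Psme3, the highest upper limit of limma's 95% interval was 0.42 (a 1.34-fold increase), for Psmd14, and the lowest lower limit was -0.27 (0.827-fold), for Psmd6. Within the core the limits were 0.30 (1.23-fold, Psmb6) and -0.19 (0.876-fold, Psmb9). Larger changes of these genes therefore lie outside the single-gene intervals, which are not adjusted for the number of genes.

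**Figure D1:**
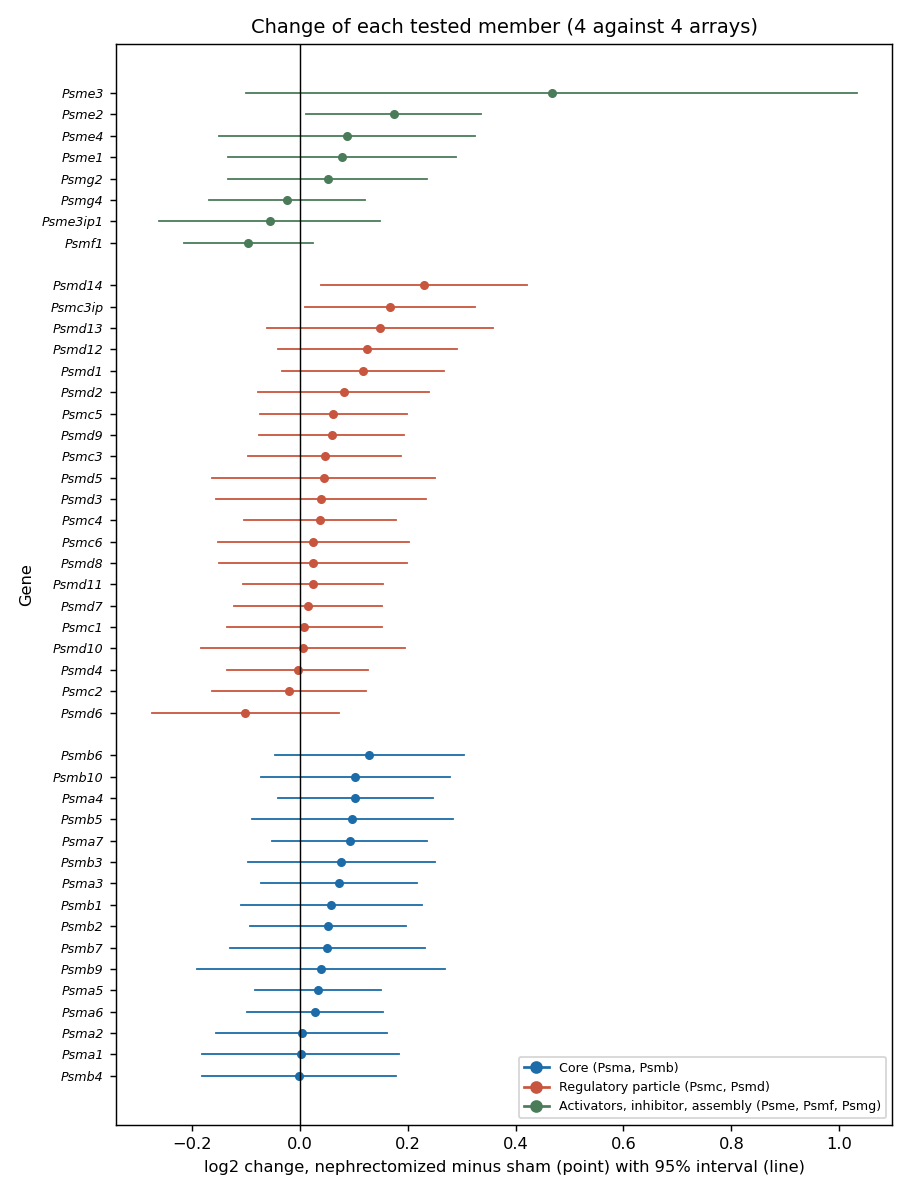
Each point is the log2 change of 1 gene, nephrectomized minus sham (horizontal axis), with limma's 95% interval as a line, for the 45 tested genes grouped by class (vertical axis). Most points sit between 0 and 0.13, and the interval of Psme3 is the widest, from -0.10 to 1.03.

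Most values were positive by a small amount, and fewer were so without 1 sham array. Of the 45 changes 38 were positive and 7 negative, a share above the 52.5% of all features, and their median was 0.051 against 0.0088 for all features. Sham replicate 3 held the lowest of the 8 values in 28 of the 45 genes (62.2%), against 18.8% of all features. Mean levels ran from -0.15 to 6.30 in the 45 genes and from -5.17 to 9.32 in all features. These shares were not matched for level, so a shift of bright probes on this array was not told apart from one of proteasome genes. The median deviation of the 45 genes from each gene's mean over the 8 arrays was -0.13 on this array, against 0.013, 0.0015 and 0.035 on sham replicates 1, 2 and 4 and 0.042, 0.021, 0.064 and 0.0023 on nephrectomized replicates 1 to 4. So 7 arrays lay close together and 1 lay below them. Without sham replicate 3 the counts were 28 positive and 17 negative, while 52.0% of all features were positive on the same arrays. The median of the 45 genes was then 0.014, and 0 of them had an unadjusted limma p under 0.05. Over all features this array was at -0.012, its 75th percentile signal was 460 against 544 to 643 on the other sham arrays and 388 to 497 on the nephrectomized ones, and 62.3% of its probes were well above background against 59.5% to 66.0% over all arrays. The part of these quantities in its position was not tested.

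**Figure D2:**
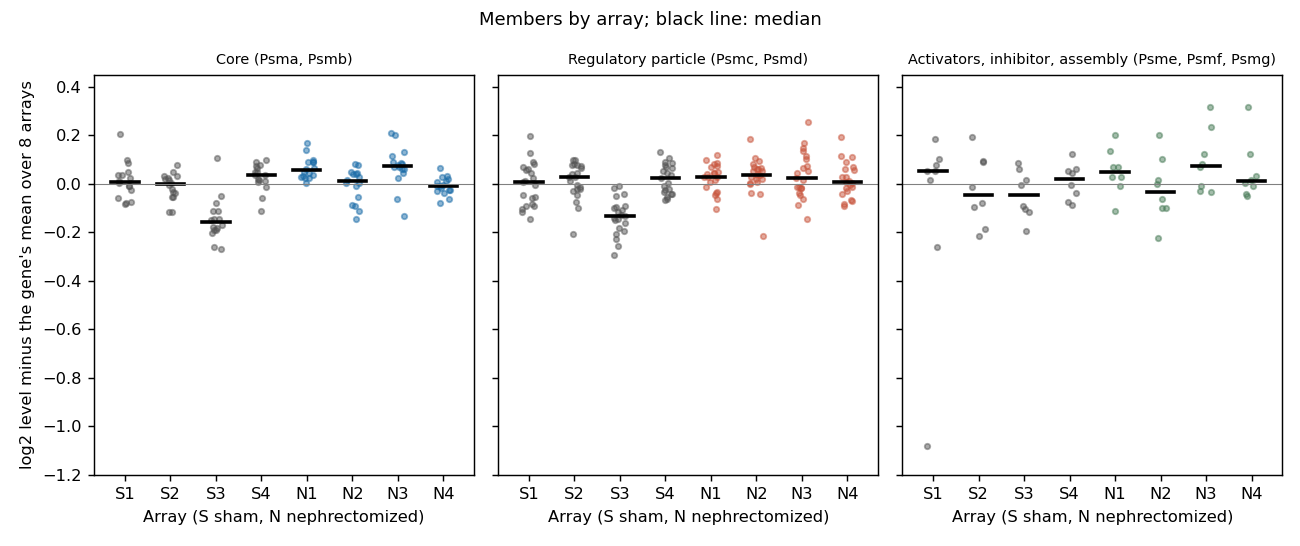
Each point is 1 gene on 1 array, as its log2 level minus its mean over the 8 arrays (vertical axis), for sham replicates 1 to 4 (S1 to S4) and nephrectomized replicates 1 to 4 (N1 to N4), with the median as a black line. Core and regulatory particle genes sit low on sham replicate 3, and the low point on S1 in the right panel is Psme3.

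On slide 1, which does not hold sham replicate 3, 28 of 45 changes were positive, against 53.0% of all features. The median of the 45 was 0.026. On slide 2, which holds that array, 39 were positive, against 51.9% of all features, and the median of the 45 was 0.081. Quantile normalization brought the deviation of sham replicate 3 to -0.050 and the median change to 0.022. With it 31 of the 45 values were positive, against 49.0% of all features. Normexp background correction left the array at -0.13 and gave 28 positive values, while 63.1% of all features were then positive. The median of the 45 genes was then 0.021, below the 0.044 of all features.

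Core and regulatory particle genes did not separate from each other. The median change was 0.055 for the 16 core genes and 0.039 for the 21 regulatory particle genes, and 15 and 18 of them were positive. Without sham replicate 3 these medians were 0.018 and 0.011, with 12 positive values in each class. On each array the core median deviation minus that of the regulatory particle was 0.0022, -0.028, -0.028 and 0.014 in sham replicates 1 to 4 and 0.026, -0.028, 0.050 and -0.019 in nephrectomized replicates 1 to 4. The groups overlapped, and the widest gap between the classes on an array was 0.050. The sham replicate 3 array held the lowest value of 13 of 16 core and 14 of 21 regulatory particle genes. Of the 8 activator and assembly genes it held the lowest value of only 1. The median deviation of the latter class was -0.049 on this array, against -0.046 on sham replicate 2 and -0.033 on nephrectomized replicate 2. The median change of this class was 0.065, and it was 0.023 without sham replicate 3 and 0.027 without sham replicate 2. The contrast between classes is a description and was not tested.

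Among the core genes, the 7 tested Psma genes, which form the gating ring, had changes from 0.0016 for Psma1 to 0.10 for Psma4. Psma3 read 4.24, 4.25, 4.03 and 4.24 in sham and 4.26, 4.26, 4.27 and 4.26 in nephrectomized kidneys. The sham values ended just under the nephrectomized ones, so the groups did not overlap, and the change was 0.073 ± 0.063 (SE; limma adjusted p = 0.621). Of the 45 genes, 2 were separated in this way with the nephrectomized arrays higher, against 7.06% of all features, and 0 with them lower, against 4.07%. Psma7 was at 0.092 ± 0.063 (SE).

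The Psmb genes include the 3 constitutive catalytic subunits. Psmb5, which carries the chymotrypsin-like site, read 4.92, 4.86, 4.64 and 4.98 in sham and 4.99, 4.90, 5.01 and 4.89 in nephrectomized kidneys. Only sham replicate 3 stood apart, and the change was 0.098 ± 0.081 (SE; limma adjusted p = 0.603), or 0.027 without that array. Psmb6, which carries the caspase-like site, read 2.90, 2.84, 2.63 and 2.96 in sham and 2.96, 2.94, 2.98 and 2.96 after nephrectomy. Its change was 0.13 ± 0.076 (SE; limma adjusted p = 0.453), and again its lowest value was sham replicate 3. That was the largest change of the core, but without this array Psmb6 was at 0.061 and Psmb10 at 0.16, and with normexp Psmb6 was at 0.0089 and Psmb5 at 0.14. Psmb7, which carries the trypsin-like site, was at 0.051 ± 0.079 (SE), and the structural subunits Psmb1 and Psmb4 were at 0.059 and -0.0011. Without sham replicate 3 Psmb7 was at -0.0088 and Psmb1 at 0.0053, and without nephrectomized replicate 3 Psmb1 was at 0.025.

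The interferon-inducible catalytic subunits Psmb9 and Psmb10 were not called, and sham replicate 3 was the lowest array for neither. Psmb9, the inducible counterpart of Psmb6, read 2.50, 2.18, 2.19 and 2.24 in sham and 2.36, 2.18, 2.51 and 2.22 in nephrectomized kidneys. Sham replicate 1 and nephrectomized replicate 3 were high, the groups overlapped fully, and the change was 0.039 ± 0.101 (SE; limma adjusted p = 0.893). Psmb10, the inducible counterpart of Psmb7, read 3.17, 3.13, 3.35 and 3.14 in sham and 3.25, 3.27, 3.45 and 3.23 in nephrectomized kidneys. Here replicate 3 was the highest array in both groups, whereas for Psmb5 and Psmb6 it was the highest in nephrectomized but the lowest in sham arrays. The change of Psmb10 was 0.10 ± 0.077 (SE; limma adjusted p = 0.558). Leukocytes express both Psmb9 and Psmb10, and 11 of 18 listed leukocyte markers could be tested. All 11 had negative values with a median of -0.25, and Adgre1, S100a8 and S100a9 fell past limma's threshold. Their summed linear level, relative to the 75th percentile signal, was 24.5 to 27.4 in sham and 22.1 to 26.0 in nephrectomized arrays. Lyz2, at -0.042, made up 17.3 to 21.1 of that sum on each array. Without it, a choice made after the values were seen, the sum was 6.30 to 6.87 in sham and 4.73 to 5.22 in nephrectomized arrays, with no overlap. Cd3e, Cd4, Cd79b, Itgam and Cd163 were among the markers on the array that were not tested. The part of leukocytes in their levels was not tested.

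In the regulatory particle, the 6 Psmc ATPase genes had changes from -0.020 (Psmc2) to 0.062 (Psmc5). Psmc4 was at 0.038 with its brighter probe and at 0.11 with its dimmer one, neither past the threshold with every probe tested on its own. The Psmc2 values were 5.06, 5.05, 4.89 and 5.06 in sham and 5.05, 5.02, 4.92 and 4.99 in nephrectomized kidneys, with replicate 3 lowest in both groups.

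Of the 14 Psmd genes 12 had positive values. Psmd14 encodes the deubiquitinase that cuts the ubiquitin chain from the captured protein. It read 1.03, 1.02, 0.86 and 1.11 in sham and 1.11, 1.15, 1.37 and 1.31 in nephrectomized kidneys. Nephrectomized replicates 3 and 4 were the highest, and the lowest nephrectomized value lay just under the highest sham value. The change was 0.23 ± 0.084 (SE), or 1.17-fold, with an unadjusted limma p of 0.0240 and an adjusted p of 0.233. Under the 21 alternatives the change of Psmd14 lay between 0.10 and 0.36, and its smallest adjusted p was 0.176.

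The scaffold subunits Psmd1 and Psmd2 were at 0.12 and 0.081, and their second probes gave 0.15 and 0.068. The ubiquitin receptor Psmd4 was at -0.0042, the partner of the deubiquitinase Psmd7 at 0.016, and Psmd11 at 0.025. For Psmd7 its 3 probes gave 0.016, -0.081 and 0.052, and none of these was past the threshold. Psmd6, a lid subunit, read 1.39, 1.25, 1.25 and 1.37 in sham and 1.30, 1.05, 1.31 and 1.20 in nephrectomized kidneys. Nephrectomized replicate 2 was lowest, the groups overlapped, and the change of -0.10 ± 0.076 (SE) was the most negative of the 45. It was -0.046 without nephrectomized replicate 2, and Psmf1 was lower with quantile normalization (-0.13 against -0.11), as was Psmc2 with normexp (-0.11 against -0.079). The genes Psmd9 and Psmd10, whose products help assemble the ATPase ring and leave it afterwards, were at 0.059 and 0.0060. Psmc3ip, the meiotic factor, read 0.018, 0.060, -0.024 and 0.16 in sham and 0.21, 0.32, 0.098 and 0.25 after nephrectomy, a change of 0.17 ± 0.069 (SE; unadjusted p = 0.0398, limma adjusted p = 0.284).

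Psme3 had both the largest change of the 45 genes and the widest spread, and the rank rested on 1 array. Psme3 encodes the nuclear activator, which is known for ubiquitin-independent degradation of cell cycle regulators. It read 1.52, 2.70, 2.60 and 2.66 in sham and 2.80, 2.71, 2.92 and 2.92 in nephrectomized kidneys. The groups did not overlap, but sham replicate 1 lay far below every other array. RefSeq lists pseudogenes or copies of Psme3, Psmd14, Psme2 and Psmb6, and their part in these signals was not tested. The change of Psme3 was 0.47 ± 0.25 (SE; 1.38-fold; limma adjusted p = 0.399). Without sham replicate 1 it was 0.18 (95% interval 0.013 to 0.36; adjusted p = 0.311), below Psmd14 (0.24) and Psme2 (0.21) on the same arrays. Its binding partner gene Psme3ip1 was at -0.056.

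Psme1 and Psme2 encode the interferon-inducible activator as a joint ring. Psme2 read 3.60, 3.40, 3.48 and 3.51 in sham and 3.65, 3.60, 3.82 and 3.62 in nephrectomized kidneys. The groups overlapped narrowly near 3.60, with nephrectomized replicate 3 highest, and the change was 0.17 ± 0.071 (SE; unadjusted p = 0.0393, limma adjusted p = 0.283). Psme1, which read 3.82, 3.42, 3.52 and 3.63 in sham and 3.77, 3.58, 3.71 and 3.66 after nephrectomy, was at 0.078 ± 0.092 (SE), or 0.019 without sham replicate 2 and 0.15 without sham replicate 1. Its highest value was sham replicate 1, which was also the highest sham array for Psme2 and Psmb9.

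Psme4, the large activator linked to histone degradation, was at 0.087 ± 0.10 (SE), or 0.015 without sham replicate 1, and its dimmer probe at -0.012. Psmf1, which encodes an inhibitor of the core, read 2.76, 2.64, 2.72 and 2.70 in sham and 2.64, 2.56, 2.63 and 2.60 in nephrectomized kidneys. The nephrectomized values were the lower ones but for a narrow overlap, and the change was -0.096 ± 0.052 (SE; limma adjusted p = 0.414). The assembly chaperone genes Psmg2 and Psmg4 were at 0.052 and -0.024.

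**Figure D3:**
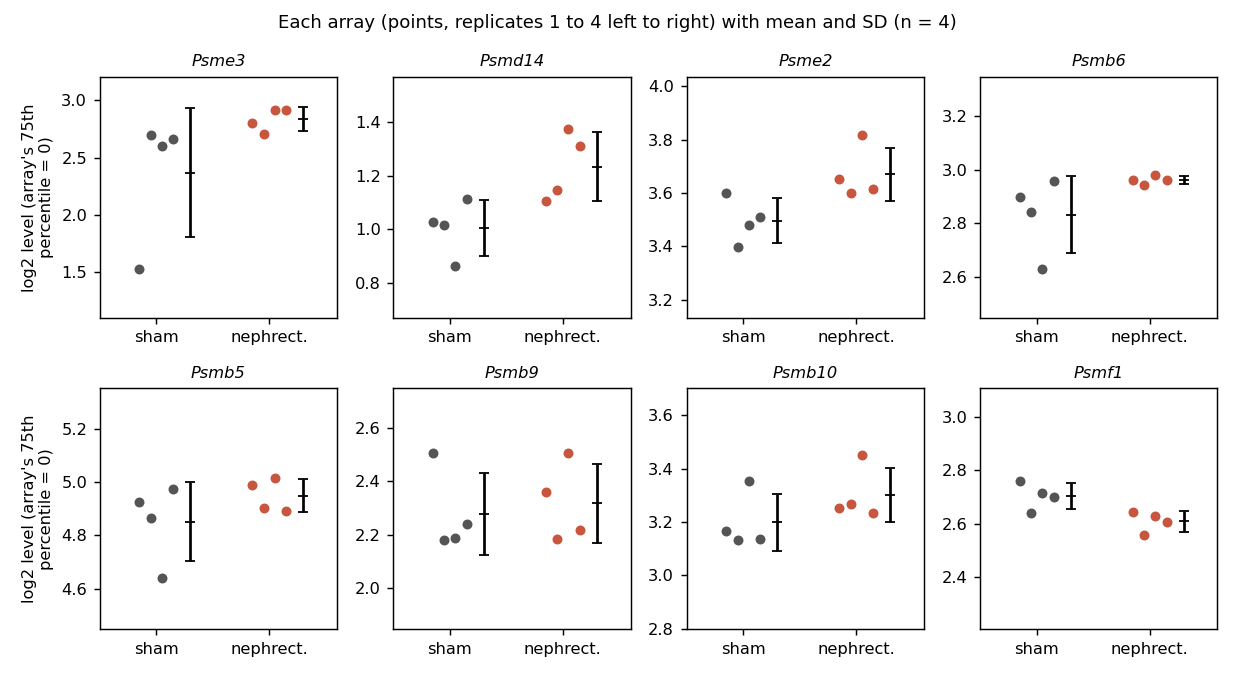
Points are the log2 levels of 8 genes on each array relative to the array's 75th percentile (vertical axis), replicates 1 to 4 from left to right, with mean and SD (n = 4) beside them. Psme3 is low on sham replicate 1 and Psmb5 and Psmb6 on sham replicate 3, and Psmd14 is highest on nephrectomized replicates 3 and 4.

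Genes that work with the proteasome were also not called. None of the 6 tested genes of ubiquitin and its activating enzymes passed (median 0.022), nor of the 6 tested of 10 other proteasome-associated genes (median -0.023), the 2 tested of 3 assembly and import genes (median 0.080) or the 12 shuttle and extraction factors (median 0.052). Usp14, a deubiquitinase that docks on the regulatory particle, was at 0.17 (limma adjusted p = 0.353), the assembly factor gene Pomp at 0.10 (adjusted p = 0.460) and the shuttle factor gene Ubqln4 at 0.13 (adjusted p = 0.454). Usp14 read 2.38, 2.21, 2.00 and 2.27 in sham and 2.41, 2.38, 2.33 and 2.43 in nephrectomized kidneys, so sham replicate 3 was its lowest array as well.

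Of 8 known regulators of proteasome genes 7 were tested and 0 passed, with a median of -0.028. Nfe2l1 had no probe matched through its accession and was not analysed here. Foxm1, a cell cycle transcription factor, was at 0.77 ± 0.21 (SE; limma adjusted p = 0.129). The 17 tested of 18 interferon-inducible genes had a median of 0.092 with 0 called and 4 higher at an unadjusted p under 0.05. The array that was highest for Psme2 and for both Psmb9 and Psmb10, nephrectomized replicate 3, was also the highest for the summed level of these 17 genes, at 38.8 against 25.8 to 36.1 on the other arrays, and its part in their values was not tested. Proliferation genes measured in the same fit, by contrast, had 5 of 11 members called higher (Ccnb2, Cdk1, Mcm2, Mcm3 and Mcm6) and a median of 1.56.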

How the data were processed

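Cy3-labelled RNA was measured on Agilent arrays, per the labels. The authors' scanner files come from Feature Extraction 10.5.1.1 and hold, per the file headers, a processed intensity with background subtracted and trends removed inside each array, on no common scale across arrays. The authors also deposited a table of log2 values for the series. Set against scanner values centred per probe they correlated at 1.00 (rounded), with slope 1.00, in the same direction, and their column medians lay between -0.0145 and 0.0153. Flags of 0 or 1 came from the same files.

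Signals were log2-transformed and shifted to each array's 75th percentile. Of 45018 spots, 1639 controls and outlier spots were left out. Probes well above background on at least 4 of 8 arrays were kept (25219, of which 25197 had a value on every array) and named through their RefSeq accession and the GRCr8 gene table (18713 probes matched), with the brightest probe per gene. This gave 20910 features, of which 10219 had a gene symbol and the rest were probes without one, and shares of all features are over this mix. Limma 3.58.1 in R 4.3.3 compared the groups (6 residual and 2.37 prior degrees of freedom), with adjusted p under 0.05 as threshold. The fit was tested on simulated data. For 19 of the 46 genes RefSeq names pseudogenes or copies, and cross-hybridisation was not tested.

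The members, lists and tests were chosen with earlier results of these data known. The interferon motif was added after the files were seen. Named are fixed members by role, the extremes of each class and leading genes of the pathway lists. Psma3, Psma4, Psmc5, Psme3ip1 and Foxm1 were named after their values were seen. Other class lists gave medians of 0.049 (erythroid), 0.085 (endothelium) and 0.025 (stroma), with 0 called. Some genes, 1 Psmb gene among them, are not reported here. Alternatives were normexp (offset 50, on median spot signals), quantile and median scaling, other filters and probe rules, trend and robust variance, replicate and slide blocks, each slide alone, the deposited table, and leaving out each array.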

Additional observations from a re-analysis of the deposited data

Results flagged for a closer look

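Dixon's test for a sample far from the others was applied to 64 groups of 4 arrays, of which chance marks about 1 in 20. It marked Psme3 on sham replicate 1, at 1.52 against 2.60 to 2.70 on the other sham arrays. It marked Psmc2 on sham replicate 3, at 4.89, and the median deviation of the regulatory particle genes on the same array, at -0.13. For Psmb10 it marked replicate 3 in both groups, at 3.35 in sham and 3.45 in nephrectomized arrays, each the highest of its group. The causes were not tested.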

How the results depend on the processing

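No proteasome gene was called under any of the 21 alternatives, at 0 higher and 0 lower in each, and the smallest adjusted p of a named gene was 0.176. The median change of the 45 genes stayed positive, between 0.014 (without sham replicate 3) and 0.081 (slide 2 alone). It lay above that of all features in the main setting (0.051 against 0.0088) but below it with normexp (0.021 against 0.044). With quantile normalization (0.022 against -0.0037) and the median shift (0.041 against -0.00047) it lay above. The same held on slide 1 alone (0.026 against 0.013) and slide 2 alone (0.081 against 0.0078). The number of all features called higher and lower moved more, from 157 and 60 to 295 and 99 with the filter on all 8 arrays, 17 and 3 without a filter, 399 and 132 with trend and robust variance, 69 and 31 with slide as a block, and 0 and 0 on slide 1 or slide 2 alone, where 1884 and 1741 features had an unadjusted p under 0.05. Leaving out 1 array gave 18 to 162 higher and 4 to 35 lower. With the replicate number as a block the counts were 6 and 4. Deviations of same-numbered arrays correlated at 0.14, 0.012, -0.056 and -0.21, and those of unlike-numbered arrays between -0.21 and 0.24. Same-numbered arrays also shared a slide. Whether the numbers pair the arrays cannot be told from so few correlations with overlapping ranges.

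Of 588 values of 28 named genes under the alternatives, 43 changed sign, none of them called, and the cause was not tested. With normexp these were Psma7 (-0.041), Psmb7 (-0.044), Psmb9 (-0.11), Psmd11 (-0.068), Psmd7 (-0.064) and Psmd9 (-0.040). With quantile normalization they were Psma1 (-0.023), Psmd10 (-0.0073) and Psmd7 (-0.0096), and with the median shift Psma1 (-0.0077) and Psmd10 (-0.0033). The mean of its probes gave Psmd7 -0.0045. On slide 1 alone they were Psma1 (-0.078), Psmb1 (-0.021), Psmb4 (0.026), Psmb9 (-0.071), Psmc4 (-0.0046), Psmd10 (-0.058), Psmd11 (-0.037) and Psmd7 (-0.0090). Leaving out 1 array gave ranges of -0.050 to 0.043 for Psmb4, -0.012 to 0.050 for Psmd7, -0.048 to 0.050 for Psma1, -0.058 to 0.072 for Psmd10, -0.028 to 0.022 for Psmd4, -0.0088 to 0.087 for Psmb7, -0.0050 to 0.10 for Psmg2, -0.060 to 0.0056 for Psmg4, -0.024 to 0.11 for Psmb9 and -0.062 to 0.0063 for Psmc2. The number of arrays limits precision, and the median half-width of the 45 intervals was 0.17.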
